A study of Homo sapiens with 20 samples.

Results

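The ABC transporter genes were the 46 protein-coding genes of the GENCODE annotation, out of 20015, whose symbols hold ABC, a subfamily letter from A to G and a number. The fused transcript ABCF2-H2BK1 is among them and shares the start of ABCF2, so their values repeat each other. The measured material was HCT-116, a human colorectal cancer cell line, and the mark was acetylation of histone H3 at lysine 27 (H3K27ac), read by chromatin immunoprecipitation and sequencing. WT cells carried an intact FBXW7 gene and KO cells were a purchased FBXW7 knockout line, so that the genotype comparison rests on 1 edited line. Both received either control esiRNA (esiCT), a pool of short interfering RNAs, or esiRNA against HDAC4 (esiHDAC4) for 48 h. They were left without drug (UNT) or exposed to 50 µM oxaliplatin (OXPT) during the last 24 h. Each of the 8 combinations had 2 libraries, named replicate A and B, which gave 16 libraries. The study's methods call the libraries of a group biological replicates, and the labels speak of 3 pooled independent experiments without tying them to the letters. The p-values measure the spread between these libraries. Peak lists do not read RNA or protein, so neither the loss of FBXW7 nor the HDAC4 knockdown could be checked in them.

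ABC proteins bind and split ATP, and most use the energy to move a substrate across a membrane. Subfamily A moves lipids, B holds the multidrug exporter ABCB1 and transporters of mitochondria and lysosomes, and C exports glutathione, glucuronide and drug conjugates. Subfamily D serves peroxisomes and lysosomes, G moves sterols and drugs, and E and F have no membrane part and act in protein synthesis. H3K27ac marks active promoters and enhancers, and a super-enhancer is a run of enhancers joined because they lie close together and carry much of the mark. Acetylation at a gene was taken here as a deposited peak within the gene body plus 5 kb on either side. A peak over a cell population cannot tell more cells with the mark from more of the mark in each cell.

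The lists differed in length and some libraries stood apart. They held from 1752 peaks (KO esiHDAC4 UNT B) to 27927 peaks (WT esiCT UNT A), and from 66 to 1265 super-enhancers. The 4 KO libraries of replicate B held 6126, 8216, 1752 and 6084 peaks, fewer than any of the other 12 libraries. The methods give a minimum number of reads that every library met, and the depth of each library was not given. In the lists, the lowest pileup background under any peak ran from 1.02 to 3.068 reads or fragments. The weakest fold that MACS2 could call at that background ran from 2.86 to 3.96. The counts of members in the tests are given with and without the 4 KO libraries of replicate B. Switches that involve KO groups need both replicates and have no value without them.

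The sequences below belong to the genes on which the results turn. ABCC2 carried acetylation in all 16 libraries, ABCA12 in 7 libraries that all received OXPT, ABCC4, a drug exporter with a GC-rich promoter, had a start-site region in 9 libraries, and ABCF2 is the start that ABCF2 and ABCF2-H2BK1 share. The promoters are RefSeq windows (GRCh38.p14), cut to the bases upstream of the gene body. The upstream stretch of ABCC2 lay under the strongest peak of 9 of 16 libraries, 3.1 kb before the start, and the intron stretch of ABCA12 lay under the peaks of 3 KO OXPT libraries, 1.2 kb after the start. Both were read from hg38, the build of the lists. Capitals mark the letters of the motifs searched, on either strand.
ABCC2 promoter (chr10:99782390-99782639, plus strand): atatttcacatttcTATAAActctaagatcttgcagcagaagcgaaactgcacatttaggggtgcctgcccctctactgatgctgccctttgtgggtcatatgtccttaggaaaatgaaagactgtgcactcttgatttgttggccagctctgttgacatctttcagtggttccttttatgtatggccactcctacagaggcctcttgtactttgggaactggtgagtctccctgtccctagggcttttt
ABCC2 upstream stretch (chr10:99779376-99779675, plus strand): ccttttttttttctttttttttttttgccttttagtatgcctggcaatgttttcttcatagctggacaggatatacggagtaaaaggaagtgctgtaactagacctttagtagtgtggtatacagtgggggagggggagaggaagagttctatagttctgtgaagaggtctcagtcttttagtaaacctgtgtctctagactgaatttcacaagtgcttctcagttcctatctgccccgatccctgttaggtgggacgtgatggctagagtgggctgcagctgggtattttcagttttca
ABCA12 promoter (chr2:215138627-215138876, minus strand): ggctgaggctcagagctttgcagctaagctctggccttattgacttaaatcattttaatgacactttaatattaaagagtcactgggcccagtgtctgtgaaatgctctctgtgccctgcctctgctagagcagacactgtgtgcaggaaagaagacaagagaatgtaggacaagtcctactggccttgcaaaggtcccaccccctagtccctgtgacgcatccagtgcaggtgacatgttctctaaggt
ABCA12 intron stretch (chr2:215137345-215137539, minus strand): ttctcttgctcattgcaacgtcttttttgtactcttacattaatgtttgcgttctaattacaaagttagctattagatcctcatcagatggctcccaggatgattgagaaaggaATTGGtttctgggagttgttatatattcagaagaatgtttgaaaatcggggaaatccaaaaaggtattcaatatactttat
ABCC4 promoter (chr13:95301476-95301701, minus strand): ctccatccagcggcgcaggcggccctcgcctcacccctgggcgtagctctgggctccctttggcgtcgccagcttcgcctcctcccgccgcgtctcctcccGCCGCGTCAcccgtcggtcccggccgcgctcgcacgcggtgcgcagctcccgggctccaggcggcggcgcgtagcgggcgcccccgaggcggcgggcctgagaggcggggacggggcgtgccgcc
ABCF2 promoter (chr7:151227206-151227455, minus strand): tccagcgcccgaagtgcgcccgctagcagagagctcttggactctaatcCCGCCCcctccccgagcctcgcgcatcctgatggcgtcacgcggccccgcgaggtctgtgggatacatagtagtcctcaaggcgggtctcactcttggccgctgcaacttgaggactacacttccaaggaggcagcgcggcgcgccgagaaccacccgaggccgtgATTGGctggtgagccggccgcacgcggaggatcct

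RefSeq windows were at hand for 36 of the 46 members, 54 windows in all, and the 250 bases before each start were searched on both strands for the TATA box with letters TATAAA, the site of factor NF-Y with letters CCAAT, the GC box with letters GGGCGG, the AP-1 site with letters TGACTCA and TGACNNNGC (the core of the antioxidant response element). TATAAA stood in 6 of the 54 member windows against 8.99% of all 21613 windows. CCAAT stood in 12 (33% of all windows), GGGCGG in 26 (54.2%), TGACTCA in 1 (3.46%) and TGACNNNGC in 9 (11.2%). The AP-1 site and the antioxidant core share their first 4 letters, so 1 stretch can match both. The ABCC2 window held 1 TATAAA, had a GC content of 45.6% and 1 CG pair, whereas the ABCC4 window had 80.4% and 42 CG pairs. The ABCA12 window held none of the 5 motifs and its GC content was 48.8%. ABCF2 held 1 CCAAT and 1 GGGCGG. A match is a description of letters and not of binding.

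Most transporter genes carried H3K27ac somewhere, few carried it everywhere. A peak lay in the window of 40 of 46 members (87%) in at least 1 library, against 76.4% of all genes. A peak within 1 kb of a start site was found for 26 members (56.5%), against 62.9% of genes. The remaining 14 members with a peak had it in an intron, an exon or a flank only. Acetylation in all 16 libraries was found for ABCC2 and ABCC3, 2 members (4.35%) against 1.99% of genes. ABCC1 and ABCC6 followed with 15 libraries, and ABCB9 with 14.

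Peaks anywhere in the window and peaks at the start ordered the subfamilies differently. In subfamily C, 9 of 11 members had a peak and the median member had one in 10 libraries. In subfamily B this was 8 of 9 members and 7 libraries, in D 4 of 4 and 7 libraries, and in F 4 of 4 and 6 libraries. The lipid movers of subfamily A had 10 of 12 members with a peak but a median of 4.5 libraries, and subfamily G had 4 of 5 and a median of 2 libraries. A start-site peak was found for 5 of 11 members of C, 5 of 9 of B, 4 of 4 of D, 4 of 4 of F, 5 of 12 of A and 2 of 5 of G. The C count of libraries includes ABCC8 and ABCC11, whose main peaks lay at KCNJ11 and LONP2, and the uncertain ABCC6. ABCE1, which recycles ribosomes, had a peak at its start in 11 libraries. The 6 members with no peak in any library were ABCA6, ABCA13, ABCB4 (the phospholipid exporter of bile), ABCC9 (a potassium channel subunit), ABCC12 and ABCG5 (a sterol exporter). These counts are descriptions, and no test was made between subfamilies.

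**Figure D1:**
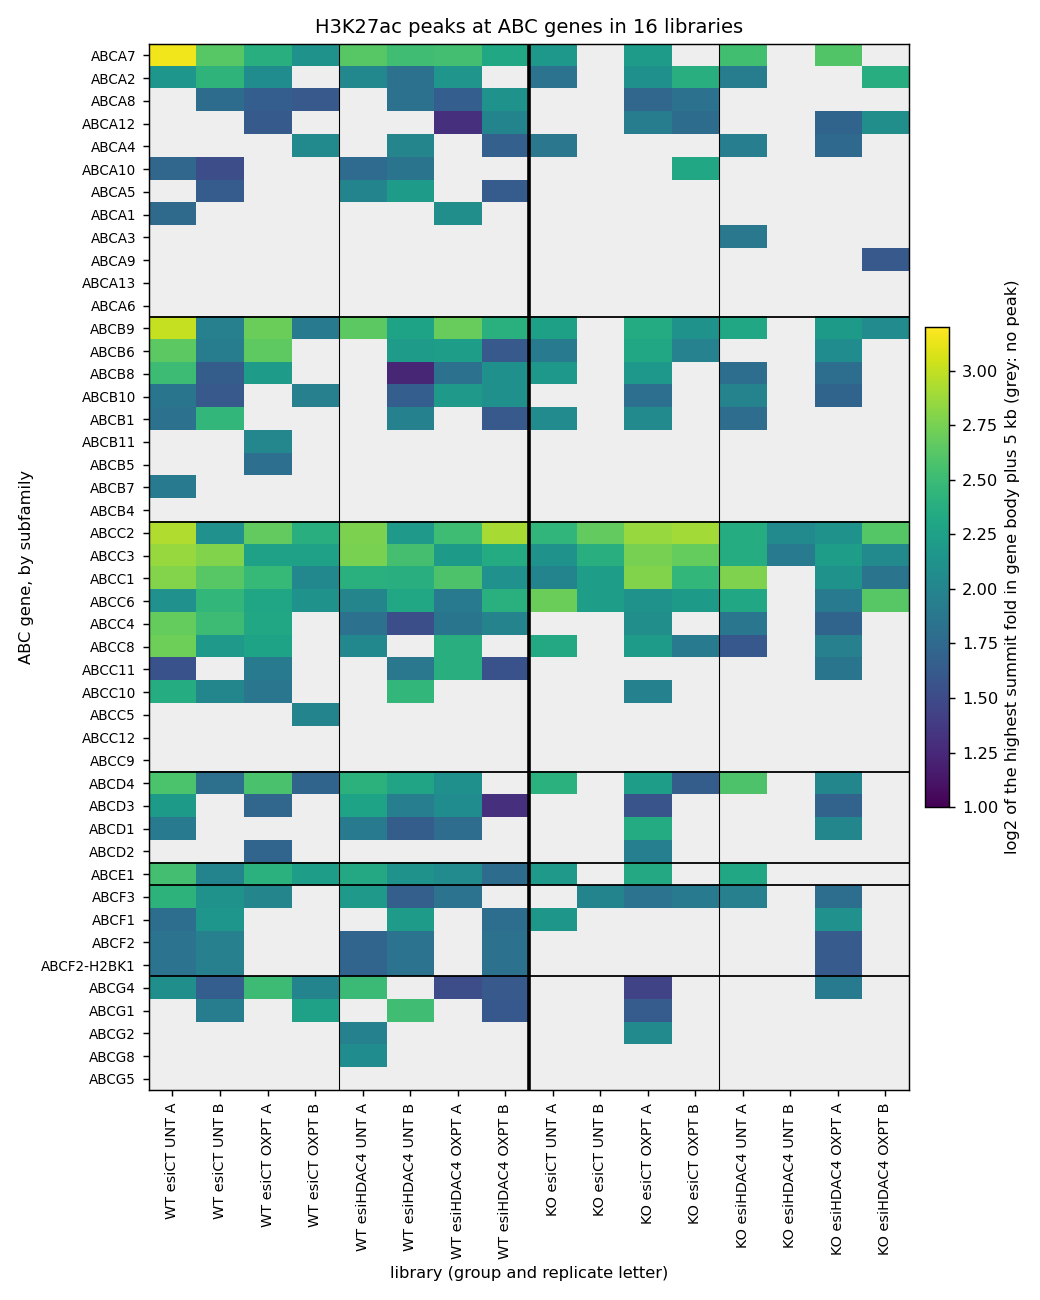
The 46 ABC genes (rows, by subfamily, those with a peak in the most libraries on top) in the 16 libraries (columns); colour is log2 of the highest summit fold of a peak in the gene body plus 5 kb, grey is no peak. ABCC2 and ABCC3 are coloured in all 16 columns, ABCA12 is coloured in 7 OXPT columns only, and the KO replicate B columns are mostly grey.

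The peaks merged into 147 regions, of which 48 touched an own start site, 54 lay in introns, 23 in exons away from the start, 10 in the upstream flank and 12 in the downstream flank. A single library held 69 of these regions and 52 were found in 4 or more libraries. Windows of 19 members also held the start of another protein-coding gene, and 16 regions sat at such a start without touching the member's own. The most frequent region of ABCA7 (12 libraries, chr19:1064597-1067797) sat at the start of ARHGAP45. The most frequent region of ABCC8, a potassium channel subunit, sat in 7 libraries at the start of KCNJ11, its channel partner (chr11:17388520-17389593). Both regions of ABCC11 (6 and 3 libraries) lay at the start of LONP2. Acetylation in those windows cannot be assigned to the transporter.

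The number of acetylated members followed the length of the list. WT esiCT UNT had 27 members with a peak in replicate A and 25 in B. WT esiCT OXPT had 23 and 14, WT esiHDAC4 UNT 21 and 27, and WT esiHDAC4 OXPT 22 and 23. KO esiCT UNT had 15 and 5, KO esiCT OXPT 25 and 13, KO esiHDAC4 UNT 17 and 2, and KO esiHDAC4 OXPT 22 and 8. The share of all genes with a peak moved beside it, from 4.2% in KO esiHDAC4 UNT B to 64.6% in WT esiCT UNT A, where the members had 4.3% and 58.7%. The widest gap between the shares was in KO esiHDAC4 UNT A, with 37.0% of members and 54.9% of genes.

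**Figure D2:**
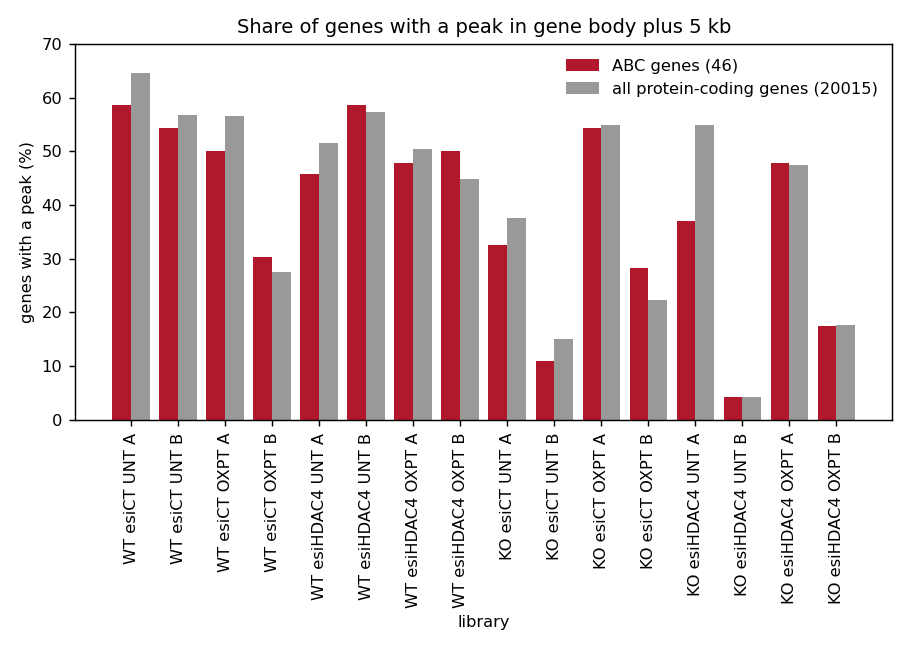
Percentage of the 46 ABC genes (red) and of all 20015 protein-coding genes (grey) with a peak in the gene body plus 5 kb, 1 pair of bars for each library. The bars of a pair mostly rise and fall together, with the widest gap in KO esiHDAC4 UNT A (37.0% and 54.9%), from 4.3% and 4.2% in KO esiHDAC4 UNT B to 58.7% and 64.6% in WT esiCT UNT A.

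ABCC2, the apical exporter of glucuronide and glutathione conjugates, had a highest fold between 4.14 and 7.68 with a median of 5.94 over the 16 libraries, and in each of them its strongest peak lay in 1 merged region around the start. That region spanned chr10:99774429-99787141 and its outermost peak began at −8.21 kb from the start. The highest summit fold, the pileup at the summit over the local background, was 7.68 and 4.32 in WT esiCT UNT replicates A and B and 6.36 and 5.24 in WT esiCT OXPT. It was 6.8 and 4.55 in WT esiHDAC4 UNT and 5.73 and 7.52 in WT esiHDAC4 OXPT. The 4 WT groups overlapped, and the replicates of WT esiCT UNT were the highest and the lowest of these 8 values.

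In KO cells the ABCC2 fold was 5.47 and 6.38 in esiCT UNT, 7.27 and 7.42 in esiCT OXPT, 5.14 and 4.14 in esiHDAC4 UNT, and 4.39 and 6.14 in esiHDAC4 OXPT. Both KO esiCT OXPT libraries lay above the other 6 KO libraries. A low fold did not mean few reads: in WT esiCT UNT B the summit held 57 reads or fragments over a local background of 11.99, and in A it held 39 over 4.21. In that library B the strongest peak ran from −7.86 to 4.01 kb around the start, and in A from −7.78 to −1.36 kb.

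**Figure D3:**
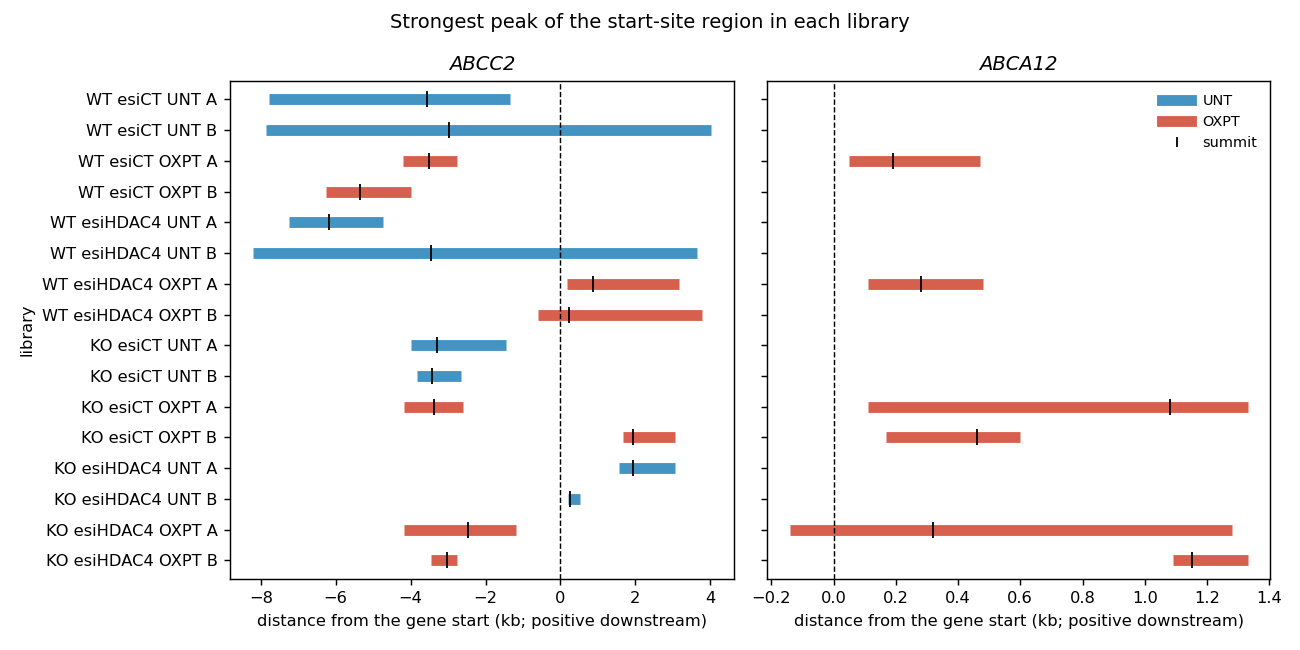
Strongest peak (bar) and its summit (tick) in the start region of ABCC2 and ABCA12 in each library, as distance from the gene start in kb, with UNT in blue and OXPT in red. ABCC2 has a bar in every library, with summits from −6.17 to 1.95 kb, while the 6 ABCA12 bars are all OXPT and lie between −0.14 and 1.33 kb.

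ABCC3, the basolateral conjugate exporter, had its acetylation spread over the gene. A region at its start (chr17:50633817-50642225) was present in 14 libraries, an exonic region 51.5 kb downstream (chr17:50684013-50687995) in 15 and another between them (chr17:50658441-50663428) in 13. The highest fold was 7.28 and 6.89 in WT esiCT UNT against 4.79 and 4.78 in WT esiCT OXPT. In KO esiCT the folds were 4.39 and 5.22 in UNT and 6.73 and 6.41 in OXPT. The median fold over genes with a peak moved too, from 5.47 and 4.69 in WT esiCT UNT to 4.54 and 4.27 in WT esiCT OXPT. After centring, the ABCC3 difference between OXPT and UNT in WT esiCT was −0.17 on the log2 scale (limma adjusted p = 0.995), against −0.57 without centring, and in KO esiCT it was 0.36 (limma adjusted p = 0.926). With esiHDAC4 the UNT libraries lay at 6.76 and 5.85 in WT and 5.14 and 3.78 in KO. The OXPT libraries overlapped between the genotypes, at 4.6 and 5.1 in WT and 4.68 and 4.12 in KO.

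ABCC1, the broad exporter of glutathione conjugates, had 2 regions in 14 libraries each, at the start (chr16:15949068-15951107) and 16.9 kb into an intron (chr16:15963643-15967046). Its highest fold was 6.91 and 6.2 in WT esiCT UNT and 5.54 and 4.07 in WT esiCT OXPT. In KO esiCT it was 3.99 and 4.66 in UNT and 6.9 and 5.49 in OXPT. In KO OXPT with esiHDAC4 it was 4.36 and 3.59, below both esiCT libraries. KO esiHDAC4 UNT B, the shortest list, had no ABCC1 peak.

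ABCC6, whose loss causes calcification of connective tissue, had no peak at its start in any library. Its peaks lay in an intron, chr16:16199749-16200412 in 15 libraries and chr16:16200671-16201700 in 11. These stretches were 96.5% and 95.4% identical to sequence at the pseudogene copy ABCC6P1, where 5 and 4 libraries also had a peak. Reads that fit both copies could have been placed at either, so the ABCC6 peaks are uncertain. The fold of ABCC6 ran from 3.75 (WT esiHDAC4 OXPT A) to 6.54 (KO esiCT UNT A).

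Of the remaining drug exporters, ABCC4, an exporter of nucleotides and prostaglandins, had a peak in 10 libraries and at its start (chr13:95299966-95301737) in 9. Its fold was 6.4 and 5.7 in WT esiCT UNT and 4.96 in WT esiCT OXPT A. Neither WT esiCT OXPT B nor either KO esiCT UNT library had an ABCC4 peak, and KO esiCT OXPT A had one at 4.25. In WT esiHDAC4 the fold was between 2.88 and 3.95. The peaks with those 2 values lay away from the start, 185.5 and 41.4 kb from it, each in 1 library, so they compare unlike sites. ABCC5, a nucleotide exporter, had 1 intronic peak in 1 library (WT esiCT OXPT B, 3.99).

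ABCB1, the multidrug exporter P-glycoprotein, had no start-site peak in any library. It had a peak in 7 libraries, with folds of 3.55 and 5.48 in WT esiCT UNT, 3.92 and 3.07 in the B replicates of WT esiHDAC4 UNT and OXPT, and 4.18, 4.14 and 3.45 in the A replicates of KO esiCT UNT, KO esiCT OXPT and KO esiHDAC4 UNT. These peaks fell in 4 regions, and the most frequent one (chr7:87628463-87629600, 4 libraries, all UNT) lay in an ABCB1 intron at the start of RUNDC3B. ABCG2, the breast cancer resistance protein, had an intronic peak 52.8 kb from the 5′-most start in 2 libraries, WT esiHDAC4 UNT A (3.91) and KO esiCT OXPT A (4.14).

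A super-enhancer overlapped the window of 5 members (10.9%) in at least 1 library, against 7.04% of genes: ABCC2 in 10 libraries, ABCB9 and ABCC3 in 5 each, and ABCC1 and ABCC6 in 2 each. ABCB9 is a peptide transporter of lysosomes. Its window also holds the starts of ARL6IP4 and OGFOD2. A region in 12 libraries touched an ABCB9 start and that of ARL6IP4. One in 7 libraries, with the highest ABCB9 fold of 8.06, touched an ABCB9 start and that of OGFOD2. Another region in 12 libraries touched ABCB9 starts only. Acetylation at the shared starts cannot be assigned to ABCB9 alone. The ABCC2 super-enhancer measured 27.3 and 26.8 kb in WT esiCT UNT and 26.0 kb in WT esiHDAC4 UNT A, and from 8.5 to 11.8 kb in the other 7 libraries that had it. ABCC2 had it in 7 of 8 esiCT and 3 of 8 esiHDAC4 libraries, and the 3 were all replicate A. That difference did not pass an exact stratified test (two-sided permutation within letters, p = 0.12, adjusted p = 1). Leaving out 1 library gave an unadjusted exact p from 0.0143 to 0.12, and ABCC2 was under 0.05 without replicate A of WT esiCT OXPT, WT esiHDAC4 UNT, WT esiHDAC4 OXPT or KO esiHDAC4 OXPT. Without the 4 KO libraries of replicate B the exact p was 0.548. Only ABCC2, ABCC3 and ABCB9 could be tested among 638 genes, and none was called for KO against WT, OXPT against UNT or esiHDAC4 against esiCT (0% of genes called in each). Without the 4 KO libraries of replicate B the count was again 0 in each.

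The genotype comparison asks whether loss of FBXW7 went with another set of acetylated transporters. Members had fewer calls in KO, as genes did in general. Of 25 members with a peak in 3 to 13 libraries, 22 had a lower share of KO than of WT libraries and 1 a higher one, and the median difference in share was −0.375, the same as over all 10892 genes tested, of which 89.9% were lower. No member and no gene was called after Benjamini-Hochberg adjustment of the exact test over all genes tested (0%), and the smallest adjusted p was 0.235. At an unadjusted p under 0.05, 3 members (12%) had fewer KO calls, against 14.6% of genes, and none had more, against 0.0275% of genes. That count depended on single libraries, and the count of genes, 1593 in the main test, rose beside it. Without WT esiCT OXPT B it was 9 members and 3019 genes. It was 8 and 2311 without KO esiHDAC4 OXPT A and 7 and 2638 without KO esiCT OXPT A. It was 6 and 1792 without WT esiCT OXPT A and 6 and 1966 without WT esiHDAC4 OXPT A. There were 5 members without WT esiCT UNT A (1629 genes), WT esiCT UNT B (1713) or WT esiHDAC4 UNT A (1868).

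Those 3 members were the ribosome recycling factor ABCE1, the lipid mover ABCA7 and the sterol transporter ABCG4. The ABCE1 start was called in every WT library (8 of 8) but in 3 of 8 with the knockout (p = 0.0143, exact test). Its fold in WT was between 3.42 and 5.84, and in the 3 KO libraries of replicate A that had it 4.56, 5.03 and 4.98, inside the WT range. Its region (chr4:145097049-145099962) also holds the start of ANAPC10.

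ABCA7 had a peak in 8 WT and 4 KO libraries (exact p = 0.0286) and ABCG4 in 7 and 2 (exact p = 0.0306). The adjusted p of this exact test was 0.235 for each of the 3. Of the ABCG4 calls, 6 libraries had the peak at the start of NLRX1. The ABCA7 region at the start of ARHGAP45 was in the same 8 WT and 4 KO libraries. With start-site peaks only, ABCG4 had an exact p of 0.486. Then 5 of 19 members (ABCD3, ABCE1, ABCF2, ABCF2-H2BK1 and ABCA7) had fewer KO calls at an unadjusted p under 0.05, against 1417 of 9815 genes. All 4 KO libraries of replicate A had the ABCA7 peak in the gene body plus 5 kb. No KO library of replicate B had a peak at ABCE1, ABCA7 or ABCG4. Without the KO libraries of replicate B, no member passed at an unadjusted p under 0.05 and 90 genes had fewer KO calls in place of 1593. That test rested on replicate A alone, where only a complete switch could pass, so its power was lower too. With lists cut to an equal length of 1752 peaks, only 3 members could be tested and none passed at that threshold. Genes with fewer KO calls were then 67 and genes with more were 21. Such lists keep only the strongest peaks, and the part that list length played was not otherwise tested apart from genotype.

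In the single comparison of KO with WT in esiCT UNT, 7 members (15.2%) had a peak in both WT libraries and neither KO library, against 17.8% of genes, and none was gained, against 0.035%. They were ABCB10 and ABCC4, the drug exporter ABCC10, ABCF2, ABCF2-H2BK1, ABCG4 and ABCA10. In esiCT OXPT no member was lost or gained between the genotypes, where 1.09% of genes were lost and 0.61% gained. These switches rest on 2 libraries a group and carry no test.

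For OXPT against UNT, ABCA12 was the member that stood out. ABCA12 moves glucosylceramide in the barrier lipids of the skin. It had a peak in 7 of 8 OXPT libraries and in 0 of 8 UNT libraries. Its fold was 3.08 in WT esiCT OXPT A, 2.47 and 3.98 in WT esiHDAC4 OXPT, 3.82 and 3.42 in KO esiCT OXPT, and 3.26 and 4.24 in KO esiHDAC4 OXPT. The OXPT library without a peak was WT esiCT OXPT B, the shortest of the WT lists.

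The exact stratified test gave p = 0.00204 for ABCA12, and the adjusted p over 10892 genes was 1. A gene that switched alone among so many could not pass the adjustment, because 16 libraries limit how small the exact p can be. ABCA12 was 1 of 25 members tested (4%) with more OXPT calls at an unadjusted p under 0.05, against 0.312% of genes, and no member had fewer, against 0.505%. After adjustment the count of genes was 0 (0%). In 6 libraries the peak lay in a region at the 5′-most start (chr2:215137291-215138770), which covers the first exon and part of the intron. The KO esiHDAC4 OXPT B peak ran from 1.09 to 1.33 kb after the start and did not overlap the WT peaks there. In WT esiHDAC4 OXPT B the peak lay 169.4 kb into the gene. All 7 folds were modest, with 11 to 19 reads or fragments at the summit. Of them 2 reached 3.96, the highest of the 16 weakest folds callable at a library's lowest background. With 3.96 as a fold minimum, or with lists of equal length, ABCA12 no longer had the 3 libraries needed for the test. In replicate A it was 4 of 4 against 0 of 4, and in replicate B 3 of 4 against 0 of 4 (exact p = 0.143 in B alone). Without the 4 KO libraries of replicate B, ABCA12 was again the 1 member with more OXPT calls among 20 tested.

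Further regions were seen in OXPT or UNT libraries only. Of 52 regions present in 4 or more libraries, 2 were all OXPT and 2 all UNT, while 12 were all WT and none all KO. These were 3.85%, 3.85%, 23.1% and 0%, against 1.13%, 1.36%, 7.4% and 0.0469% of 21311 such regions over the windows of all genes. The WT lists were longer, the ABCF2 regions count for both members of that pair, and the part of list length was not tested. The second OXPT region lay 17.7 kb from the start of ABCG4, at the start of NLRX1 (chr11:119166034-119167892, 6 libraries, fold 2.73 to 3.99). The UNT regions were that of ABCB1 at RUNDC3B and an intronic region of ABCA10, a member of subfamily A (chr17:69175685-69176634, 4 WT libraries, fold 2.86 to 3.59). These regions were chosen after their values were seen and carry no test.

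In WT esiCT, 5 members (10.9%) had a peak in both UNT and neither OXPT library, against 4.88% of genes, and none was gained, against 0.235%. They were ABCB1, ABCA10, ABCF1, ABCF2 and ABCF2-H2BK1, of which the last pair is 1 start. ABCF1, a translation initiation factor, had 3.46 and 4.46 in WT esiCT UNT, and the start-site fold of ABCF2 was 2.74 and 3.46. The highest folds in the ABCF2 window, 3.58 and 3.88, belonged to a peak 4.9 kb upstream at the start of CHPF2. WT esiCT OXPT B held 10562 peaks against 25333 in WT esiCT UNT B, so the lists of that comparison differed in length too. In KO esiCT the direction was the other one: 2 members (4.35%) were gained, ABCA12 and the lipid mover ABCA8, against 3.05% of genes, and none was lost, against 0.155%. ABCA8 had 3.3 and 3.55 in KO esiCT OXPT, and its 2 regions lay 45.9 and 46.8 kb into the gene.

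For esiHDAC4 against esiCT, no member was called after adjustment (0% of genes) or at an unadjusted p under 0.05, where 0.0184% of genes had more and 0.0918% fewer calls in esiHDAC4. No member of 20 tested passed without the 4 KO libraries of replicate B either. In KO OXPT, 1 member (2.17%), ABCA8, was lost with esiHDAC4, against 1.64% of genes, and none was gained, against 0.335%. In WT OXPT no member was lost or gained, against 0.759% and 1.29% of genes.

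Summit folds could be compared for 1145 genes with a peak in each of 15 libraries (KO esiHDAC4 UNT B left out), and 4 members were among them: ABCC1, ABCC2, ABCC3 and ABCC6. The values were log2 folds centred on each library's median and fitted with limma, with group and replicate letter as terms. Each value is the highest fold of the window, which can come from a different site in each library. The strongest ABCC2 summit lay at −6.17 kb in WT esiHDAC4 UNT A and at 1.95 kb in KO esiCT OXPT B. ABCC1 had 16 regions and ABCC3 had 14, so a difference need not be a change at a single site. None of the 4 was called in any of 9 contrasts. Without the 4 KO libraries of replicate B, 3219 genes and 6 members could be compared and again no member was called. Among all genes 0.524% were called for KO against WT and 0.0873% for OXPT against UNT, and 0% in each of the other 7 contrasts. At an unadjusted p under 0.05 the genes numbered from 20 to 172 in a contrast.

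**Figure D4:**
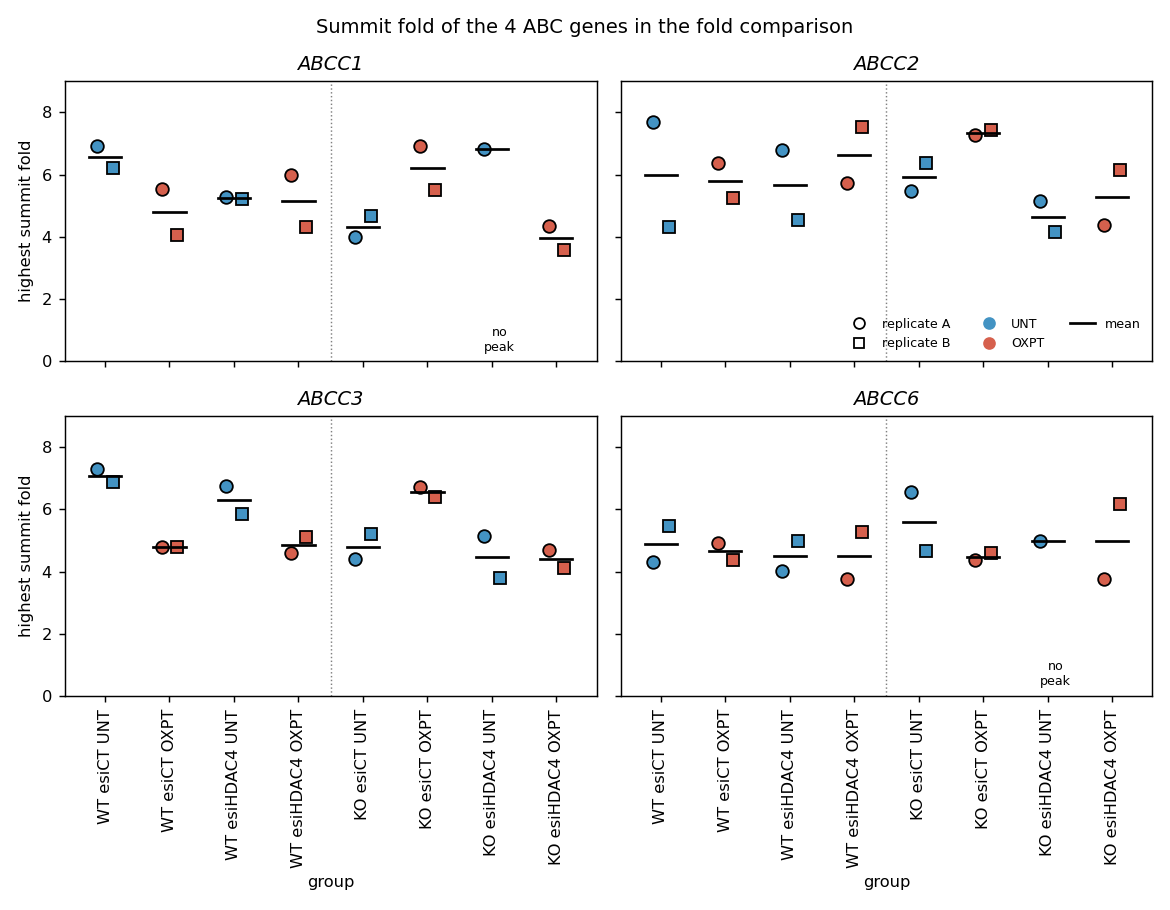
Highest summit fold (linear axis from 0) of ABCC1, ABCC2, ABCC3 and ABCC6 in each library, by group; circles are replicate A, squares replicate B, bars the mean of the libraries shown, blue UNT and red OXPT. ABCC3 is higher in UNT than in OXPT in WT esiCT and lower in UNT than in OXPT in KO esiCT, and the replicates of ABCC2 in WT esiCT UNT lie at 7.68 and 4.32.

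ABCC2 was 0.32 higher in OXPT than in UNT on the centred log2 scale (SE 0.14), with a limma adjusted p of 0.722 and an unadjusted p of 0.0325. With summit reads over the lowest background of the library in place of the local background, the difference was 0.03, and over 22 settings on a log2 scale it ran from 0.03 to 0.40. For KO against WT the ABCC2 difference was 0.08, with a 95% interval from −0.21 to 0.37, and for esiHDAC4 against esiCT −0.10, from −0.39 to 0.18. Both intervals hold 0 and differences in either direction.

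In KO OXPT, esiHDAC4 lay below esiCT for ABCC1 by −0.49 (SE 0.21, limma adjusted p = 0.832) and for ABCC3 by −0.43 (SE 0.20, limma adjusted p = 0.84). In WT OXPT the corresponding differences were 0.06 and −0.02, and the test of KO minus WT gave −0.55 for ABCC1 (limma adjusted p = 0.945) and −0.41 for ABCC3 (limma adjusted p = 0.986). With summit reads over the lowest background the differences in KO OXPT were −0.13 for ABCC1 and 0.01 for ABCC3, and those of KO minus WT turned to 0.24 and 0.22. Without the 4 KO libraries of replicate B, only replicate A was left in each KO group, and the differences in KO OXPT were −0.43 and −0.29. The OXPT response in esiCT was 0.49 higher in KO than in WT for ABCC1 and 0.53 higher for ABCC3, and 0.72 lower for ABCC6, and none passed (limma adjusted p = 0.972, 0.972 and 0.903). With summit reads over the lowest background these became 0.18 for ABCC1, −0.03 for ABCC3, a turned direction, and −0.73 for ABCC6. Without centring they were 0.98, 1.02 and −0.23, and the median gene itself moved by 0.48. With the 4 KO libraries of replicate B left out they were 0.77, 0.70 and −0.998, again with only replicate A in each KO group.

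**Figure D5:**
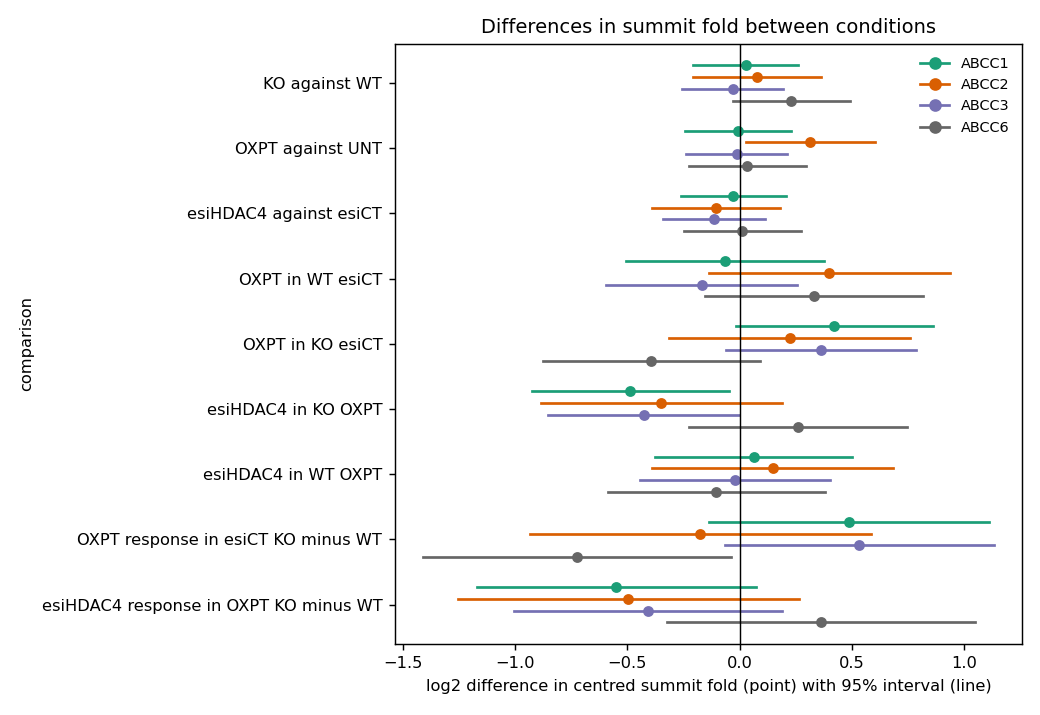
Log2 difference in centred summit fold (points) with 95% intervals (lines) for ABCC1, ABCC2, ABCC3 and ABCC6 in the 9 contrasts fitted with limma. The intervals that leave out 0 are those of ABCC2 for OXPT against UNT, ABCC1 and ABCC3 for esiHDAC4 in KO OXPT, and ABCC6 for the OXPT response, none with an adjusted p under 0.05.

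Genes related to the transporters were read the same way. The ABC proteins with other symbols were TAP1 and TAP2, the peptide transporter of antigen presentation, and the chloride channel CFTR. TAP1 had a peak in 9 libraries and TAP2 in 4. CFTR had one in 5 of 8 OXPT and 0 of 8 UNT libraries (exact p = 0.0306, adjusted p = 1), and in no library at its start. It was 1 of these 3 genes with more OXPT calls at an unadjusted p under 0.05, against 0.312% of all genes. Of 16 regulators, all had a peak in at least 1 library, and SREBF1, a controller of lipid synthesis, had one in all 16. Among them 1 had fewer KO calls at an unadjusted p under 0.05, PPARG, with 4 KO and 8 WT libraries, out of 9 tested. Of 12 partners and platinum movers, 8 had a peak, the copper importer SLC31A1 in 9 libraries and the glutathione transferase GSTP1 in 12. Of 7 tested, GSTP1 and PEX3 had fewer KO calls (4 and 3 against 8 each, exact p = 0.0286 and 0.0143). The adjusted p of the exact test was 0.235 for PPARG, GSTP1 and PEX3, and 14.6% of all genes had fewer KO calls at that unadjusted threshold. In replicate A the KO and WT libraries with a peak were 4 and 4 for PPARG and GSTP1 and 3 and 4 for PEX3, and in replicate B 0 and 4 for each.

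The cell label was checked against markers. Of 12 markers of colorectal epithelium 11 had a peak, with KRT8 and KRT18 in all 16 libraries, EPCAM and KRT19 in 15, CDX2 in 11, LGR5 in 3, CDX1 and VIL1 in 1 each and KRT20 in none. Of 12 markers of other cell types 8 had a peak in some window, among them CD68 in 13 libraries, CDH5 in 12, PECAM1 and COL1A1 in 11, GFAP in 8, SYP in 5 and PTPRC in 1. COL1A1 had it at its start in 11 libraries and CD68 in 1, and CD3E, COL1A2, DCN and ALB had no peak. A library held from 2 to 9 of the epithelial and from 0 to 7 of the other markers.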

How the data were processed

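H3K27ac ChIP-seq of HCT-116 was read in 16 libraries, 8 groups of 2. Per its methods the study used Trimmomatic 0.39 for trimming, Bowtie2 2.4.4 for alignment (hg38), SAMtools 1.18 for read files, MACS2 2.2.7.1 for peaks and ROSE for super-enhancers. The methods kept super-enhancers that also carried H3K4me1. Whether the deposited lists had passed that filter, and whether input was the peak caller's control, is not stated. The authors deposited 1 peak list per library, with a MACS2 score, the fold of the summit over local background and −log10 p and q values (the deposited −log10 columns). The deposited super-enhancer lists hold positions only. Neither holds read counts, so no count model was used. The 4 inputs were not used.

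A gene had a peak if one overlapped its GENCODE (release 44) body plus 5 kb, and a start-site peak within 1 kb of an annotated start. Presence was compared for genes called in 3 to 13 libraries by an exact two-sided permutation test stratified by replicate letter, with Benjamini-Hochberg adjustment over all genes tested. Log2 summit folds, centred on the library median, were fitted with limma 3.58.1 in R 4.3.3, with group and letter as terms, in 15 libraries, since the list of KO esiHDAC4 UNT B was too short. A switch was a peak in both libraries of 1 group and neither of the other. Python 3.11.15, numpy 2.4.6 and scipy 1.17.1 were used. Summit reads and local background were computed back from fold and p. On simulated data, the presence test for KO against WT found 100% of 200 switches (1 false call among 20015 genes) and the fold test 99.5% of 200 genes changed by a log2 of 1 (11 false calls among 1145 genes), also for KO against WT. The 200 switches were complete and made together, so they do not show that a gene switched alone could pass the adjustment. The fold simulation does not show that differences smaller than a log2 of 1, or contrasts between 2 groups of 2 libraries, could be found. Of 1879 simulated peaks the recovery returned 100%. These peaks had no scaled pileup, while WT esiCT UNT B was solved with a fitted scale of 0.968, for 99.5% of its peaks. They also had lower backgrounds than the ABCC2 peak of that library.

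The members and lists were chosen with earlier results of these data known. The genes named were ABCB1, ABCC1 to ABCC5 and ABCG2, members with a super-enhancer, members with an unadjusted p under 0.05 in a presence test or an adjusted p under 0.05 in a fold contrast, members that switched, and the 3 highest and lowest by median fold among those called in all 16 libraries. The few others were chosen after their values were seen. Peaks on other contigs (533, beside 271550 used) and 28 super-enhancers there were left out. Alternatives changed the window, list length, thresholds, centring, letters and libraries. The planned fold minimum of 1.54 lay below nearly all deposited folds and had little effect, so 3.96 was added after seeing the data.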

Additional observations from a re-analysis of the deposited data

Results flagged for a closer look

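The number of ABC genes with a peak moved in opposite directions with OXPT in esiCT cells of the 2 genotypes, in both replicate letters. In WT it went from 27 and 25 in UNT to 23 and 14 in OXPT, a mean difference of −7.5 genes. In KO it went from 15 and 5 to 25 and 13, a mean difference of 9.0 genes. The difference between the genotypes was not tested. Over all protein-coding genes the mean differences were −3737.5 and 2483.0 genes. With lists cut to equal length the member differences were 0.0 in WT and 0.5 in KO, and with the fold minimum of 3.96 they were −2.0 and 3.0.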

How the results depend on the processing

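Of 22 main results, 15 stayed the same under every alternative, as did 374 of 394 values, where a nearby count was taken as the same. These 15 were the counts of members called after adjustment, which were 0 throughout. A gene that switched alone could not pass the presence adjustment. In the main settings only 3 members entered the super-enhancer tests and 4 the fold tests. The unchanged zeros therefore say little about robustness. The switch counts and the count of members with a peak each moved under some alternative. Members called after adjustment were 0 in every presence, super-enhancer and fold comparison, also when each library was left out in turn (0 to 0), except that without KO esiHDAC4 UNT A, the last library of its group, 3 of the 9 fold contrasts could not be fitted. The switches moved most, and the counts below are not always of the same genes. Brackets give the count over all 20015 genes. For OXPT in WT esiCT the 5 members lost (977) became 3 with no flank (1152), 3 with 10 kb (932), 3 at start sites (1148) and 0 with equal list lengths (188). With the fold minimum of 3.96, chosen after seeing the data, 1 was lost (1385), which was ABCC10, none of the 5. For OXPT in KO esiCT the 2 gained (610) became 1 at start sites (444), 3 with 10 kb (640), 0 with equal lists (73) and 1 with that minimum (541), which was ABCA2. For esiHDAC4 in KO OXPT the 1 lost (328) became 0 with start sites (292), equal lists (68) or the minimum (625). With 10 kb it became 2, of which 1 was lost (326) and 1 gained (71). With the minimum, the 0 for esiHDAC4 in WT OXPT became 2, of which 1 was lost (209) and 1 gained (256). The 0 for KO against WT in esiCT OXPT then became 1 lost (256). For KO against WT in esiCT UNT the 7 lost (3563) became 4 with no flank (3684), 0 with equal lists (209) and 3 with the minimum (2775). Members with a peak in at least 1 library, 40 in all (15295), were 26 at start sites (12585), 8 with equal lists and 8 at a −log10 q of at least 10. All genes were not counted with equal lists or at that q. Those in all 16 libraries, 2, were 0 at start sites, 1 with equal lists, 0 at that q and 1 with the minimum. ABCC3 for esiHDAC4 in KO OXPT turned to 0.014 with summit reads over the library's lowest background, an alternative added after seeing the data. The cause was not tested.

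The block on replicate letter followed the study's methods, but the letters did not clearly pair the samples: 21 correlations of deviations ran from −0.060 to 0.342, with a median of 0.050. Without the replicate block 0 members were called, and members with fewer KO calls at an unadjusted p under 0.05 were 2 in place of 3, with 1096 genes in place of 1593. Without centring, genes called by limma were 31 in place of 6 for KO against WT, 7 in place of 1 for OXPT against UNT, 45 in place of 0 for OXPT in WT esiCT and 14 in place of 0 for the difference of the OXPT responses. At start sites alone no member entered the fold comparison. Depth per library was not given, and the weakest fold callable at a library's lowest background differed between libraries, from 2.86 to 3.96.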
